A study of Saccharomyces cerevisiae with 5 samples.

Results

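The coding sequences (CDS) nearest the chromosome ends of budding yeast were described for their γH2A in YPD and for their mRNA with and without copper. A CDS was taken where at least 1 of its bases lay in the outer 20000 bp of a nuclear chromosome in the R64 genome, which gave 312 of the 6697 CDS measured, with 4 to 13 at each of the 32 ends. A further 9 CDS of these outer regions are not reported here. The 312 fall into 19 seripauperin (*PAU*) genes, 11 *COS* genes, 32 CDS of the Y′ helicase family (8 of them annotated as *YRF1*) and 250 others. At the cutoff, *YPR195C* (19773 bp from the right end of chromosome XVI) was the last CDS inside and *YMR315W-A* (20039 bp from the right end of XIII) the first outside.

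All cells were of BY4741, a haploid strain of mating type **a**, growing in YPD. The CuSO4 group received 1 mM CuSO4 for 4 hours and the YPD group none, and each gave 1 poly(A)+ RNAseq library. γH2A, the phosphorylated form of histone H2A, was mapped by ChIPseq in YPD cells against 1 library of input DNA, and the γH2A library of CuSO4-treated cells is not analysed here. With 1 library per condition there is no replicate error, no test between conditions and no p-value, and every interval given covers counting error only.

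The outer part of a yeast chromosome is built in layers. Terminal repeats of TG-rich sequence are followed by an X element at every end and, at many ends, by 1 or more Y′ elements that lie outside the X element and encode a helicase. Sir proteins spread inward from the repeats and from X elements and silence genes close to the end, and the kinases Mec1 and Tel1 make γH2A in such regions as well as at stalled replication forks. Genes of these regions belong largely to families used in particular environments: *PAU* genes encode cell wall mannoproteins made without oxygen, *COS* genes encode membrane proteins that act in the sorting of other membrane proteins, and further families take up or break down sugars, make vitamins B1 and B6 or retrieve phosphate.

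The inner border of the telomere region annotated by RefSeq (the edge of the X element on its centromere side) is the landmark around which most of the highest γH2A peaks were found, so the sequence there is shown first. The string TCANNNNNNACG, the core of the site bound by the general factor Abf1, was searched on both strands in the 500 bp outside each border (431 bp at VI R, where the whole region is that short). It matched exactly once at 32 of 32 ends, always on the strand that reads towards the centromere, while 16.5% of 24134 windows of 500 bp across the nuclear genome held it. X elements are alike in sequence, so the 32 ends are not independent cases to set against that share. At 30 ends the match began 267 to 271 bp outside the border, at 25 of them at exactly 269 bp. The string did not mark the peak summits. In 500 bp centred on the highest summit of each end it was found at 3 of 32 ends (9.38%). In the 500 bp on the centromere side of the border it was found at 0. A match is a description of the letters and not evidence of a bound factor. The lines below give 52 bases at 6 ends, read from the end inward in R64 with the match in capitals, for the 3 ends with the highest γH2A peaks, for 2 ends whose highest peak lay in the Y′ element, and for V L, 1 of the 2 ends with the match elsewhere.
XV L (chrXV:560-611, plus strand): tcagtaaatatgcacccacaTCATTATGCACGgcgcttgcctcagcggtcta
VI R (chrVI:269969-270020, minus strand): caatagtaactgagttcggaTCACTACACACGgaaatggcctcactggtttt
I L (chrI:513-564, plus strand): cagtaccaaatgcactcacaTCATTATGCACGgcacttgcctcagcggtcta
IX L (chrIX:7496-7547, plus strand): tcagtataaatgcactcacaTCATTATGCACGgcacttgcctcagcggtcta
X L (chrX:7479-7530, plus strand): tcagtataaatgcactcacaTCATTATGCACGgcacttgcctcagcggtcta
V L (chrV:6293-6344, plus strand): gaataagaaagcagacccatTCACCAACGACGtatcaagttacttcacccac

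The 52 bases of IX L and X L are the same sequence, and the 12 capitals TCATTATGCACG occurred at 19 of the 32 ends. The bases around the match at VI R and V L differ from the others at many positions.

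γH2A was found at every chromosome end. Of 240 peaks of at least 2-fold enrichment in YPD, 107 had their summit in the outer 20 kb, with 1 to 7 at each of the 32 ends. These peaks reached 13.8-fold (median 2.88) and had a median length of 2635 bp, against a maximum of 5.81-fold, a median of 2.32 and a median length of 936 bp for the 133 other peaks. Of the 20 highest peaks in the genome, 18 were at ends. The peak list gives no read depth, so the error of a fold enrichment is not known.

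At most ends the highest peak sat next to the X element, on its centromere side. At 17 of the 32 ends its summit lay 206 to 426 bp on the centromere side of the border (median 258 bp), and these 17 peaks were 4.78- to 13.8-fold enriched. Many of these ends are alike in the 1000 bp inside the border, such as II R and XIII L (100% identical) or XII L and XIV R (99.8%). The 17 are therefore not independent cases, and the part of read placement in their shared position was not tested. At XV L, with the highest peak in the genome (13.8-fold), the summit was 258 bp inside the border, within *YOL166C*, a CDS of no known product that had no reads in either library. All of *YOL166C* is repeated sequence, and XV L and III R are 96.15% identical over 987 bp inside the border. The highest peak of III R lay 8064 bp inside, at 3.83-fold. Reads from 1 of these ends could be placed on the other, and what this did to their peaks was not tested. The peak at VI R (9.48-fold) was 782 bp inside and 112 bp from *YFR057W*, and the peak at I L (8.43-fold) was 257 bp inside and 266 bp from *YAL068W-A*. The peaks at X R (7.998-fold) and XI R (7.93-fold) lay 281 and 206 bp inside, with *YJR162C* and *GEX2*, a glutathione exchanger, as the nearest CDS. The 4 nearest CDS at XV L, VI R, I L and X R had 0 reads with CuSO4 and at most 1 read in YPD, and *GEX2* had 51 reads with CuSO4 and 35 in YPD.

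**Figure D1:**
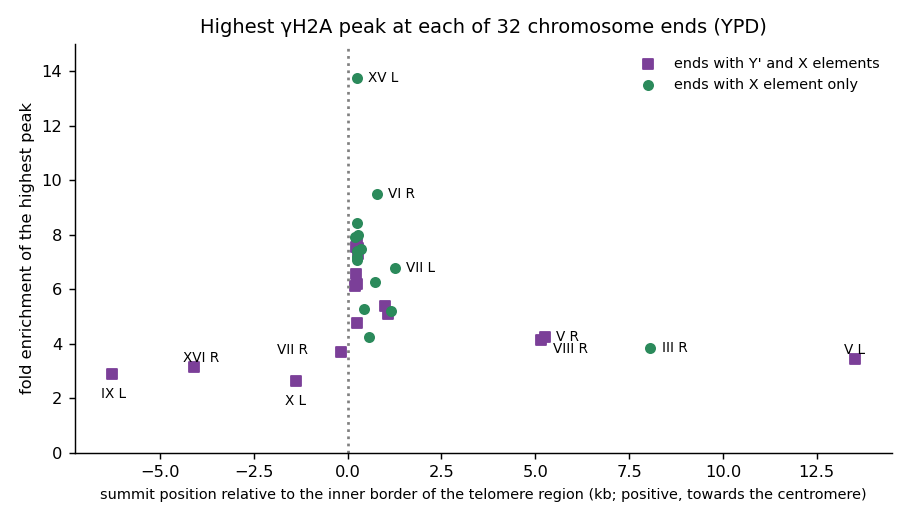
Fold enrichment of the highest γH2A peak at each of the 32 ends (vertical axis) against the position of its summit in kb from the inner border of the telomere region (horizontal axis, positive towards the centromere); squares are ends with Y′ and X elements and circles ends with an X element only. Most points stand just right of the border, up to 13.8-fold at XV L, and the peaks at IX L, X L, XVI R and VII R lie outside it.

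The ends that departed from this position also had lower peaks. The 11 highest peaks with a summit outside the border or more than 1000 bp inside had a median of 3.83-fold, against 7.28-fold for the 21 within 1000 bp inside the border. Ends were sorted by where their highest peak lay, so an end without a high peak at the border falls among the 11 by rule. The cutoff also parts XV R (985 bp, 5.39-fold) from XVI L (1087 bp, 5.08-fold), whose 1000 bp inside the border are 99.9% identical. At IX L (2.90-fold) and X L (2.64-fold) the highest peak lay 6267 and 1370 bp outside the border, in the Y′ element. Their 1000 bp inside the border are 99.9% identical to each other, so reads from 1 could be placed on the other, and what this did to their peaks was not tested. The same 1000 bp of II R and XIII L are 100% identical, and those ends had peaks of 7.08- and 7.28-fold at 265 and 292 bp inside. At VIII R, V R, III R and V L the highest peak was 5164 to 13526 bp inside the border, with 3.44- to 4.25-fold enrichment.

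The telomere regions of Y′-bearing ends, which hold an X element and Y′ elements, carried broad, low peaks. Inside the telomere regions of 16 of the 17 Y′-bearing ends there were 30 peaks of 2.13- to 4.00-fold (median 2.62), and none had a summit in the telomere region of the 15 ends that have an X element only. These regions are 431 to 1098 bp long at the X-only ends, against 5505 to 13897 bp at the Y′-bearing ends, so the number of summits cannot be compared between them. The highest summits, at VIII R (4.00-fold) and VII R (3.68-fold), lay 481 and 166 bp outside the border and may be in the X element. At 26 of these 30 peaks the control level of the peak caller was above its genome-wide minimum of 84.8, up to 128, as it was at 9 of the other 77 end peaks. The part of the control level in the folds there was not tested.

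Coverage by peaks was highest near the end. Between 1 and 3 kb from the end, all bases at the Y′-bearing ends and 92.3% to 93.3% of bases at the X-only ends lay inside a peak (means over ends). At the X-only ends the mean was 15.5% between 19 and 20 kb. At the Y′-bearing ends it was lowest between 16 and 17 kb, at 9.40%, and higher again between 18 and 19 kb (31.9%) and between 19 and 20 kb (29.1%). From the border inward, 86.7% of the first 1000 bp was covered at the Y′-bearing ends and 93.3% at the X-only ends.

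**Figure D2:**
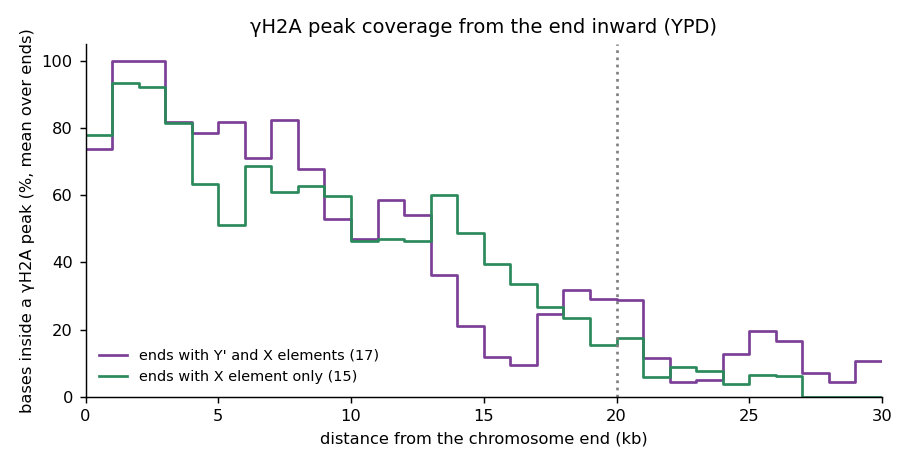
Mean share of bases inside a γH2A peak (vertical axis, percent) in each 1 kb step from the chromosome end (horizontal axis, kb) at 17 ends with Y′ and X elements and 15 ends with an X element only. Both lines are highest between 1 and 3 kb, at 92.3% or more; before the dotted line at 20 kb the X-only line ends at 15.5%, and the Y′ line dips to 9.40% between 16 and 17 kb and ends at 29.1%.

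An upstream peak was common among end-proximal CDS. Within 1000 bp upstream, 218 of the 312 had a peak (69.9%), against 6.64% of all CDS, and 208 had one over at least 1 of their own bases (66.7%), against 4.91% of all CDS. The upstream share was 43.6% among the 133 CDS without repeated sequence over 50% of their length, 46.2% with peaks of at least 3-fold, and 17.3% where the summit itself had to lie in the window. The share with an upstream peak was 88 of 91 CDS within 5 kb of the end, 65 of 85 at 5 to 10 kb, 49 of 74 at 10 to 15 kb and 16 of 62 at 15 to 20 kb. All 32 helicase CDS had one, as did 17 of 19 *PAU* genes, 9 of 11 *COS* genes and 160 of the 250 others (64.0%). The 5 *PAU* genes elsewhere in the genome had none upstream or over the CDS. A single peak often covered several CDS, and 172 of the 312 lay wholly inside peaks, so CDS of 1 end are not independent.

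The mRNA of end-proximal CDS was scarce in both libraries. Levels are log2 of reads per kb of CDS, scaled by the authors to the larger library. The median level was 5.10 with CuSO4 and 5.02 in YPD, against 7.84 and 7.82 for all CDS. The 312 CDS together held 0.695% of 5749810 reads on CDS with CuSO4 and 0.685% of 5572698 in YPD, with 39 and 37 of them at 0 reads. A count of 0 allows up to 3 reads, and in bulk RNA fewer cells transcribing a gene and less RNA per cell cannot be told apart. Among CDS with under 50% of their length repeated elsewhere at 95% identity, called single-copy here (133 of the 312), the median was 5.99 with CuSO4 and 5.89 in YPD.

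Single-copy CDS farther from the end had higher levels. Their median level within 5 kb of the end was 3.80 with CuSO4 and 3.70 in YPD (16 CDS, all at X-only ends). With CuSO4 it was 5.22 at 5 to 10 kb (31 CDS), 5.97 at 10 to 15 kb (37 CDS) and 7.00 at 15 to 20 kb (49 CDS), and in YPD it was 5.00, 5.84 and 6.81 in the same steps. The order was not strict within the X-only ends, where the medians at 5 to 10 and 10 to 15 kb were 5.48 and 4.59 with CuSO4 and 5.21 and 5.23 in YPD. CDS with an upstream peak had a median of 4.46 with CuSO4 and 4.10 in YPD, and those without one of 6.35 with CuSO4 and 6.41 in YPD, but the first lie nearer the ends and the 2 properties cannot be told apart here.

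The families differed widely in level. *PAU* genes gave few reads: all 19 together gave 82 reads with CuSO4 and 80 in YPD, with 5 and 4 genes at 0, and the median level was 2.60 with CuSO4 and 2.51 in YPD. The most reads over both libraries were on *PAU18* at XII L, with 12 with CuSO4 and 26 in YPD. *COS* genes were transcribed at about the level of an average CDS, with medians of 7.58 with CuSO4 and 7.40 in YPD, with *COS12* at VII L lowest in reads (48 with CuSO4 and 38 in YPD). *COS1* at XIV L had the most reads with CuSO4 (748, against 399 in YPD) and *COS6* at VII R the most in YPD. *COS6* had 594 reads with CuSO4 and 590 in YPD, and the log2 changes of the 10 genes other than *COS1* ran from -0.33 (*COS5*) to 0.29 (*COS12*). Helicase CDS lay between, with medians of 5.04 with CuSO4 and 5.34 in YPD. Reads were placed on every one of the 32 in both libraries. All 32 helicase CDS, all 19 *PAU* genes and 6 of the 11 *COS* genes are repeated CDS and not single-copy. A read placed on 1 of them need not come from that copy. The levels of single repeated CDS depend on that placement, and which copies were transcribed was not tested.

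**Figure D3:**
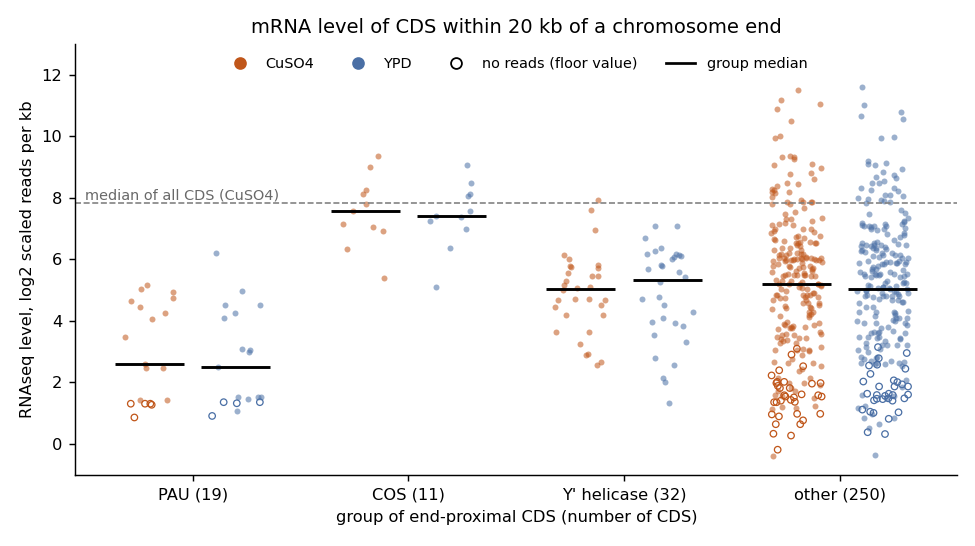
RNAseq level (vertical axis, log2 scaled reads per kb) of each end-proximal CDS by family, with CuSO4 on the left and YPD on the right of each pair; open circles are CDS with no reads, drawn at the authors' floor value, black bars are group medians and the dashed line is the median of all CDS with CuSO4 (7.84). *COS* genes lie around the dashed line and *PAU* genes far below it in both libraries.

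A few CDS near ends were nevertheless among the well transcribed genes of the cell. Of the 10 highest outside the 3 families with CuSO4, 8 were named genes that lie 12289 to 19060 bp from the end. *CHA1*, the serine and threonine deaminase, had 3153 reads with CuSO4 and 3264 in YPD. *ADH6*, an NADPH-dependent alcohol dehydrogenase, had 2282 reads with CuSO4 and 2148 in YPD, and *HYR1*, the glutathione peroxidase that senses hydrogen peroxide, had 925 with CuSO4 and 839 in YPD. *ERG13* (HMG-CoA synthase) had 2152 reads with CuSO4 and 2294 in YPD, and *RET2* (a subunit of the COPI coat) 1699 with CuSO4 and 1566 in YPD. *DLD3* (a D-2-hydroxyglutarate dehydrogenase), *NRE1* and *GTT1* (a glutathione transferase) had 1478, 495 and 450 reads with CuSO4, against 1445, 417 and 402 in YPD. None of these 8 had an upstream γH2A peak, and their log2 changes with CuSO4 ran between -0.14 and 0.20. The other 2 of the 10, *YFR052C-A* and *YNL339W-A*, had an upstream peak and changes of 0.60 and 1.84.

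As a group, end-proximal CDS changed little with copper. The 234 whose libraries summed to 10 reads or more had a median log2 change (CuSO4 over YPD) of 0.05, with an interval of -0.01 to 0.12, against 0.01 over 6363 CDS in the whole table. Summed over the 312, 39971 reads with CuSO4 and 38196 in YPD gave a log2 change of 0.02 (-0.00 to 0.04). The summed change was -0.01 (-0.48 to 0.45) for *PAU* genes, 0.18 (0.11 to 0.26) for *COS* genes, -0.00 (-0.07 to 0.06) for helicase CDS and 0.00 (-0.02 to 0.03) for the others. The *COS* value rested on *COS1*: without it the 10 other genes gave 0.02 (-0.06 to 0.11). The helicase value rested on *YRF1-6*: without it the other 31 gave -0.40 (-0.47 to -0.34). *YRF1-6* differs from *YRF1-3* at 2 of 5728 bases, so reads can be placed between it and other copies. The -0.40 and its interval depend on that placement.

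Single CDS moved more than their sums. Of 182 end-proximal CDS that had 20 reads or more in 1 of the libraries, 9 were at least 2-fold higher with CuSO4 and 12 at least 2-fold lower, against background shares of 0.526% and 0.658% of all 6078 CDS with as many reads. All 21 are repeated CDS, and none of the 93 single-copy CDS with as many reads reached 2-fold in either direction. Across the genome, 20.6% of 248 repeated CDS and 0.360% of 5830 single-copy CDS were called in either direction, so the 21 of 89 repeated CDS near ends (23.6%) and the 0 of 93 single-copy ones are close to the shares of their kind. Among those 93 the changes ran from -0.86 (*MCH2*, 12 reads with CuSO4 and 21 in YPD) to 0.89 (*YER187W*, 25 reads with CuSO4 and 13 in YPD). Of the 21, 11 are helicase CDS, 7 lie over their whole length on the other strand of another CDS, and 20 are at Y′-bearing ends. Whether strand was used in counting is not stated, so reads of the CDS on both strands may be mixed.

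How far the reads could tell these 21 CDS from their copies was measured from the sequence. Every 50-base window of each CDS was looked up on both strands of the genome. In 17 of the 21, no window was found only once, and the share of such windows was at most 20.6% in the other 4. In the 93 and the other single-copy CDS (133 in all) the median share was 100% and the lowest 53.0%. Of the 21, 12 have a CDS of identical sequence elsewhere. Summing reads over copies (CDS that match over at least 90% of both lengths at 95% identity), a step added after the data were seen, left 3 groups at least 2-fold higher and 2 at least 2-fold lower among 145 with at least 20 reads. No share over all CDS pooled in the same way was computed, so these counts have no background beside them. Partial matches were not pooled, so read placement can still enter these sums. *YEL076C*, 1 of the 2 lower, stood alone although no 50-base window of it was found only once.

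*YRF1-1*, *YRF1-5* and *YRF1-8* show this most plainly. Their CDS are identical over all 5391 bases, and the first 60 are given to show that no base sets them apart.
YRF1-1 (chrIV:1526321-1526380, plus strand): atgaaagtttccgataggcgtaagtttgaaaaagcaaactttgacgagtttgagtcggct
YRF1-5 (chrXII:1072508-1072567, plus strand): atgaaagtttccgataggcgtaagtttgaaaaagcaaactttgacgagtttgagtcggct
YRF1-8 (chrXV:1085473-1085532, plus strand): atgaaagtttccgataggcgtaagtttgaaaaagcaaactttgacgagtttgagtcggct

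*YRF1-1* at IV R had 237 reads with CuSO4 and 23 in YPD, and *YRF1-8* at XV R had 194 with CuSO4 and 21 in YPD. *YRF1-5* at XII R had 238 reads with CuSO4 and 428 in YPD, in the opposite direction. The log2 changes of 3 identical CDS thus spanned -0.90 to 3.32, while their sums, 669 reads with CuSO4 and 472 in YPD, gave 0.45 (0.28 to 0.63). No read from inside these CDS can say which copy it came from, so the single values hold the authors' placement of reads and the sum does not depend on it within the 3. Reads can still be placed between these 3 and other Y′ copies. Over the 9 CDS of their copy group, 2896 reads with CuSO4 and 2199 in YPD gave 0.35 (0.27 to 0.43). *YRF1-6*, 1 of the 9, held 1390 of these reads with CuSO4 and 398 in YPD.

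*COS2* at II R and *COS3* at XIII L are identical over 1140 bases, and there the copies kept close together. *COS2* had 318 reads with CuSO4 and 297 in YPD, and *COS3* 348 with CuSO4 and 309 in YPD. *ERR1* at XV R and *ERR2* at XVI L, related to enolase and identical over 1314 bases, went apart again at few reads: *ERR1* had 18 reads with CuSO4 and 1 in YPD, and *ERR2* 1 with CuSO4 and 8 in YPD. Their sum was 19 reads with CuSO4 and 9 in YPD, a log2 change of 1.03 (-0.19 to 2.36).

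*FEX1* and *FEX2*, the exporters that keep fluoride out of the cell, differ enough for some reads to be placed. They lie at XV R and XVI L, 2 ends whose 1000 bp inside the border are 99.9% identical, and their CDS differ at 8 of 1128 bases, the first at position 628. Bases 883 to 942 of both CDS are shown with the differences in capitals.
FEX1 (chrXV:1077666-1077725, plus strand): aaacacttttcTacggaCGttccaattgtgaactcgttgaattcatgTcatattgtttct
FEX2 (chrXVI:13414-13473, minus strand): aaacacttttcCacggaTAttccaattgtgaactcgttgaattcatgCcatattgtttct

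*FEX1* had 180 reads with CuSO4 and 97 in YPD, and *FEX2* had 60 with CuSO4 and 142 in YPD. Summed, the pair had 240 with CuSO4 and 239 in YPD (log2 change -0.04, -0.31 to 0.22). The share of the pair's reads on *FEX1* was 75% (69.0% to 80.3%) with CuSO4 and 40.6% (34.3% to 47.1%) in YPD, intervals that do not overlap. Of 35 pairs of copies with reads in both libraries, 3 had intervals that did not overlap and 32 had intervals that did. In each copy, 20.6% of 50-base windows occur only once in the genome.

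The acid phosphatases *PHO11* at I R and *PHO12* at VIII R, secreted when phosphate is short, differ at 4 of 1404 bases. Bases 1227 to 1286, with 2 of these 4 in capitals, show how far apart such positions lie.
PHO11 (chrI:226686-226745, plus strand): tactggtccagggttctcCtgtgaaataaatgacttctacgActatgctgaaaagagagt
PHO12 (chrVIII:553325-553384, plus strand): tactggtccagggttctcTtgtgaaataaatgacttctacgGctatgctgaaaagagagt

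*PHO11* had 94 reads with CuSO4 and 48 in YPD, and *PHO12* had 88 with CuSO4 and 121 in YPD. The sum was 182 reads with CuSO4 and 169 in YPD (log2 change 0.06, -0.25 to 0.37), while the share on *PHO11* was 51.6% (44.1% to 59.1%) with CuSO4 and 28.4% (21.7% to 35.8%) in YPD. *YEL076C-A* at V L and *YLR464W* at XII R, which differ at 1 of 930 bases, also had shares whose intervals did not overlap, with 17 and 115 reads with CuSO4 and 51 and 123 in YPD. *VTH1* at IX L and *VTH2* at X L, homologues of the vacuolar sorting receptor Vps10 with 1 difference in 4650 bases, split evenly in both libraries: 249 and 257 reads with CuSO4, 271 and 246 in YPD. An even split was also kept by *COS7* and *COS5* at IV L and X R, which differ at 51 of 1152 bases (162 and 140 reads with CuSO4, 186 and 170 in YPD).

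**Figure D4:**
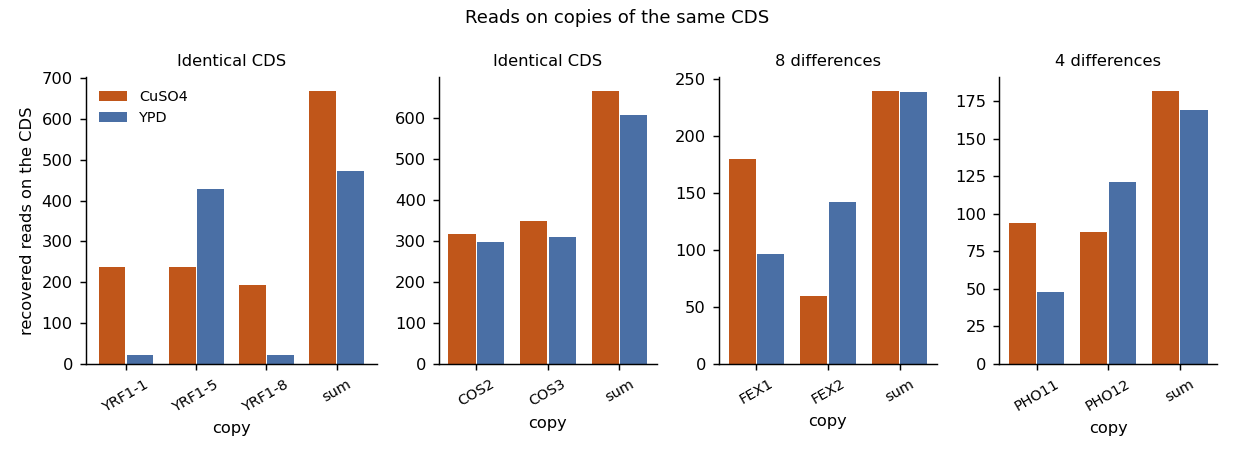
Recovered reads (vertical axis) on each copy and on their sum in the CuSO4 library (left bar of each pair) and the YPD library (right bar), for *YRF1-1*, *YRF1-5* and *YRF1-8*, *COS2* and *COS3*, *FEX1* and *FEX2*, and *PHO11* and *PHO12*; each library is 1 sample and the panels have their own scales. The copies of *YRF1*, *FEX* and *PHO* move in opposite directions, while the *FEX* and *PHO* sums differ by 1 and 13 reads.

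The other called CDS lay in blocks at a few ends. XII L, with Y′ elements, held 5 of the 12 that were lower: *YLL066C* had 97 reads with CuSO4 and 492 in YPD, *YLL067C* had 85 with CuSO4 and 373 in YPD, and *YLL066W-A* and *YLL067W-A*, on the other strand of these, had 10 and 14 with CuSO4 against 52 and 50 in YPD. The fifth was *PAU18* (12 reads with CuSO4 and 26 in YPD), whose CDS is identical to that of *PAU6* at XIV R, with 13 with CuSO4 and 3 in YPD. Their sum of 25 reads with CuSO4 and 29 in YPD gave -0.26 (-1.10 to 0.56). At XIV L, *YRF1-6* had 1390 reads with CuSO4 and 398 in YPD, and *YNL339W-A* and *YNL339W-B*, on its other strand, had 377 and 56 with CuSO4 against 102 and 16 in YPD. *YRF1-6* differs from *YRF1-3* of VII R at 2 of 5728 bases, and *YRF1-3* went the other way, with 36 reads with CuSO4 and 79 in YPD. *YRF1-7* at XVI L, identical to *YRF1-3*, had 149 reads with CuSO4 and 356 in YPD, and *YRF1-2* at V R 30 with CuSO4 and 74 in YPD. *YRF1-4* at XII R, which was not called, had 164 with CuSO4 and 205 in YPD.

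Most of the other calls were short CDS at Y′-bearing ends. *YDR545C-A* at IV R and *YOR396C-A* at XV R, each on the other strand of a *YRF1* CDS, both had 31 reads with CuSO4, against 5 and 3 in YPD. *YPL283W-A* at XVI L had 37 reads with CuSO4 and 75 in YPD, although its sequence is identical to that of *YNL339W-A*. Summed over the 5 identical CDS of that group, 450 reads with CuSO4 and 209 in YPD gave 1.06 (0.82 to 1.30). *YNL339W-A* held 377 of these reads with CuSO4 and 102 in YPD. *YEL076C* at V L, of the helicase family, which lies inside *YEL076C-A*, had 5 reads with CuSO4 and 30 in YPD. *YPR203W* at XVI R, also of the helicase family, had 60 with CuSO4 and 21 in YPD, and its copy *YFL065C* at VI L, with 1 different base in 309, had 10 with CuSO4 and 3 in YPD.

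By end, repeated and single-copy CDS were set apart by the size of their changes. At the 26 ends with at least 20 reads on single-copy CDS, their summed log2 change ran from -0.44 (I L) to 0.38 (VI L), and none reached 1.5-fold. At the 26 ends with at least 20 reads on repeated CDS, the summed change ran from -2.24 (XII L) to 3.20 (IV R), and at 8 it was beyond 1.5-fold. At IV R the repeated CDS gave 276 reads with CuSO4 and 29 in YPD, a log2 change of 3.20 (2.65 to 3.81), and the single-copy CDS 605 with CuSO4 and 587 in YPD, a change of -0.01 (-0.17 to 0.16). At XII L the values were -2.24 (-2.46 to -2.03) for repeated and -0.05 (-0.25 to 0.16) for single-copy CDS, and at XIV L 1.32 (1.22 to 1.43) and 0.07 (-0.04 to 0.19). XV R and XVI L, which hold only repeated CDS, gave 1.05 (0.83 to 1.27) and -0.96 (-1.15 to -0.77). The share of repeated sequence moves with the size of the change, and the part of read placement in it was not tested beyond the sums over copies.

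**Figure D5:**
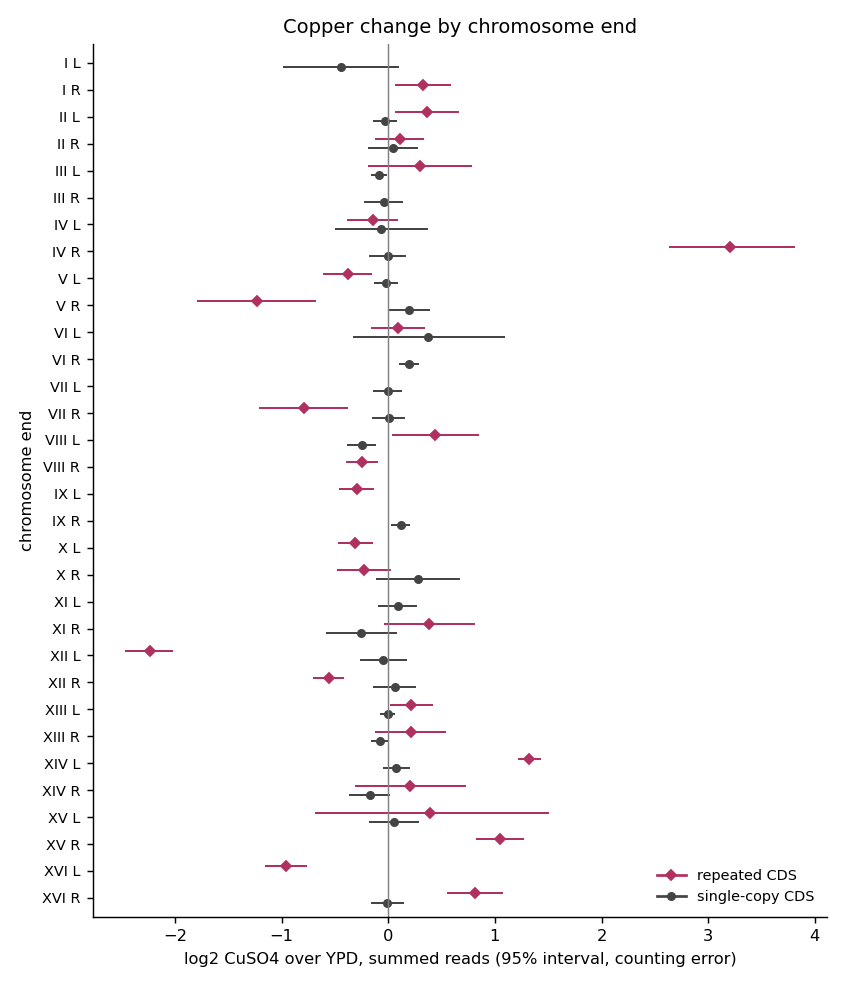
Log2 ratio of summed reads, CuSO4 over YPD (horizontal axis), for repeated CDS (diamonds) and single-copy CDS (circles) at each chromosome end (vertical axis), with exact 95% intervals for counting error; groups under 20 reads are not drawn. Single-copy CDS stay between -0.44 and 0.38, while repeated CDS run from -2.24 at XII L to 3.20 at IV R.

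Among single-copy CDS with at least 50 reads the largest changes were below 2-fold. *FET4* at XIII R, a low-affinity plasma membrane transporter of iron that also carries copper, was lowest, with 339 reads with CuSO4 and 593 in YPD (log2 change -0.86, -1.05 to -0.66). *ARN1* at VIII L, a carrier of iron bound to siderophores, had 542 reads with CuSO4 and 724 in YPD (-0.47, -0.63 to -0.30). *AAD3* at III R had 96 reads with CuSO4 and 133 in YPD, *MAL33* at II R, an activator of maltose genes, 44 with CuSO4 and 65 in YPD, and *YPR196W* at XVI R 63 with CuSO4 and 81 in YPD. Of these 5, *YPR196W* alone had an interval that reached 0 (-0.91 to 0.08).

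In the other direction, *MSC1* at XIII L had 604 reads with CuSO4 and 337 in YPD (0.79, 0.60 to 0.99). *YFR052C-A* at VI R had 707 with CuSO4 and 452 in YPD (0.60, 0.42 to 0.77), but it shares 143 of its 306 bases with another CDS of its strand, so its reads are not its own alone. *AAD10* at X R, *YLR460C* at XII R and *EMA35* at III R had 80, 107 and 57 reads with CuSO4 against 56, 77 and 44 in YPD, with intervals that include 0. Reads can be placed more fully on single-copy CDS than on repeated ones, although 43.4% of *AAD3* is repeated sequence. *FET4* and *MSC1* had no upstream peak.

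Single-copy CDS with a γH2A peak upstream gave slightly more reads with CuSO4. The 58 of them summed to 3688 reads with CuSO4 and 3178 in YPD, a log2 change of 0.16 (0.10 to 0.23), and 0.08 (0.00 to 0.15) without *YFR052C-A*. The 75 without an upstream peak gave -0.03 (-0.05 to -0.00). Medians over those with at least 10 reads were 0.18 (40 CDS) and 0.02 (73 CDS), and none of either group reached 2-fold with 20 reads in 1 library.

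Genes of 3 pathways with end-proximal members were listed, and with 1.18% of all 6078 CDS called in either direction, a count of 0 called says little about lists of this size. Of 21 sugar genes (hexose transporters, maltose genes, isomaltases and *SUC2*), 14 are end-proximal, and no gene of the list reached 2-fold with 20 reads. *MPH2* and *MPH3*, permeases for maltose, had 64 and 52 reads with CuSO4 and 66 and 59 in YPD. The 8 vitamin genes measured are all repeated, and their summed log2 change was 0.35 (0.09 to 0.61): *SNZ2* and *SNO2* of XIV L, for vitamin B6, had 115 and 82 reads with CuSO4 and 72 and 58 in YPD, and their copies *SNZ3* and *SNO3* of VI L 40 and 16 with CuSO4 and 38 and 25 in YPD. *THI12* of XIV L, for the pyrimidine part of thiamine, had 15 reads with CuSO4 and 6 in YPD, and *THI5*, *THI11* and *THI13* at most 14 in either library. The 5 aryl alcohol dehydrogenases measured had a summed change of -0.08 (-0.29 to 0.13), from -0.52 (*AAD3*) to 0.50 (*AAD15*).

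The regulators of these regions were read for comparison and lie elsewhere in the genome. Of 20 genes for silencing and end protection, among them *SIR1* to *SIR4*, *RAP1*, *TEL1*, *CDC13* and the telomerase genes *EST1* to *EST3*, 0 were called, a count that the share of 1.18% over all CDS would also give, with changes from -0.39 (*STN1*) to 0.32 (*SIR1*). The regulators of anaerobic genes (*UPC2*, *ECM22*, *ROX1*, *MOT3*, *SUT1* and *HAP1*) had changes between -0.20 and -0.04. The anaerobic mannoproteins outside the *PAU* family were also below 2-fold, with a summed change of -0.47 (-0.62 to -0.32): *TIR1* had 320 reads with CuSO4 and 463 in YPD, and *TIR3* 73 with CuSO4 and 111 in YPD. The flocculin genes *FLO1*, *FLO5* and *FLO9*, which cause cells to clump, lie outside the outer 20 kb, and their summed change was 0.03 (-0.18 to 0.24). *FLO9*, of which 75.1% is repeated sequence, was called higher with 134 reads with CuSO4 and 60 in YPD, while *FLO1* had 95 with CuSO4 and 147 in YPD, and *FLO5* 159 with CuSO4 and 160 in YPD.

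The silent mating type cassette *HML* lies in the outer 20 kb of III L. *HMLALPHA1* had 0 reads in both libraries. *HMLALPHA2*, whose product represses **a**-specific genes, had 23 reads with CuSO4 and 6 in YPD, a log2 change of 1.89 (0.55 to 3.47), the 1 called CDS at an X-only end. Its CDS is identical over 633 bases to *MATALPHA2*, which the reference genome holds at *MAT* and a strain of mating type **a** lacks. The 2 together gave 48 reads with CuSO4 and 12 in YPD (1.95, 1.02 to 2.999). *HMRA2* of the other silent cassette, which shares part of this sequence and is not in that sum, had 188 reads with CuSO4 and 186 in YPD. The reference holds α genes at *MAT*, so reads from the **a** genes at *MAT* of this strain can be placed on *HMRA2*. Its reads therefore need not come from the silent cassette. Through the shared part such reads can also be placed on *HMLALPHA2*, and what this did to its change was not tested. As a check of the strain, the 5 markers of **a** cells summed to 11742 reads with CuSO4 and 10115 in YPD, and the 4 of α cells to 244 with CuSO4 and 247 in YPD, with *MF(ALPHA)1* at 0 in both. Most of the α reads were on *SAG1*, 207 with CuSO4 and 190 in YPD.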

How the data were processed

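The RNAseq values were deposited by the authors as log2 of reads on each annotated CDS, after mapping with HISAT2 2.0.5 to R64 and counting in SeqMonk, scaled to the larger library and divided by CDS length, with CDS without reads set at 0.9 reads. No common median was set in these values, although the methods mention that step (medians 7.84 with CuSO4 and 7.82 in YPD). Reads were recovered from the values with a scale of 1.04 for YPD and 1 for CuSO4, and 99.98% and 99.94% of values above the floor (CuSO4 and YPD) came out within 0.05 of a whole number. How reads with several placements were treated, and whether strand was used, is not given in the sources used here.

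The authors deposited γH2A peaks as called by MACS2 on reads mapped with Bowtie2 2.2.5, with the pileup signal, the fold enrichment (a ratio to the control level) and −log10 p-values, after removing artifactual peaks by hand and keeping those of at least 2-fold. The list is labelled for the ChIP libraries of both conditions and the input, and was taken as that of YPD cells because the legend of the study's list of γH2A genes says so. The control level is (pileup + 1) divided by the fold, minus 1. The −log10 values deposited were not used further.

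Read ratios carry exact Clopper-Pearson 95% intervals, and medians intervals from their order statistics. Intervals cover counting error only. Calls needed a 2-fold difference and 20 reads in 1 library, and medians of change a total of 10 reads over both. Repeats were found with BLAST+ 2.17.0 (megablast). Gene symbols come from RefSeq, where 238 of the 312 CDS were found at the same coordinates, and sequences and the borders of telomere regions from its R64 assembly. The members, lists and rule for named genes were chosen with earlier results of these data known. The rule takes all *PAU*, *COS* and *YRF1* members, every called member, the 5 largest rises and falls among single-copy members with at least 50 reads, the 10 highest outside the families, the member nearest each of the 5 highest end peaks, and fixed lists. The lists are anaerobic mannoproteins and their regulators, silencing and end protection, sugar, vitamin, aryl alcohol dehydrogenase, flocculin, acid phosphatase and enolase-related genes, and mating type markers. The 3 flocculin genes listed are not end-proximal. The copy pairs were chosen with their values in view. The interval and call steps were tested on simulated data. Scripts used Python 3.11.15 with scipy 1.17.1.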

Additional observations from a re-analysis of the deposited data

How the results depend on the processing

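No paired analysis was possible because there was only 1 library of each kind. The share with an upstream peak (69.9%) was 75% with a window of 2000 bp, 17.3% with the summit inside the window, 46.2% with peaks of at least 3-fold, 86.9% and 50.2% for CDS within 10 and 30 kb of an end, and 43.6% for single-copy CDS. The share with a peak over the CDS (66.7%) was 15.4%, 42.6%, 84.1%, 47.0% and 37.6% under the last 5 of these settings. Peaks near ends (107) numbered 49 at 3-fold or more and 67 within 10 kb. The median level with CuSO4 was 5.50 for CDS with reads in both libraries, 4.70 and 5.63 for 10 and 30 kb, and 5.99 for single-copy CDS, and in YPD it was 5.52, 4.51, 5.61 and 5.89, and 4.63 without division by length. CDS called higher (9) numbered 14 with a minimum of 10 reads and 6 with 50, and those called higher and lower numbered 25 and 19 at 1.5-fold, 4 and 4 at 4-fold, 0 and 0 among single-copy CDS, and 3 and 2 with reads summed over copies. No share over all CDS was computed for these read minimums, these folds or the sums over copies. The summed helicase change was -0.40 without *YRF1-6* and the summed *COS* change 0.022 without *COS1*. The helicase value depends on how reads were placed between copies. The settings that sum over copies or leave out *COS1* were added after the data were seen. The other 32 of the values recomputed for these results moved by less than their interval or by at most 1.5 times, and all 42 values recomputed for the called CDS, with libraries centred or 5 reads added, kept their direction. The median of all CDS shifts by 0.01 on the log2 scale under centring. Depth limits the *PAU* genes most, whose 19 CDS share about 80 reads in each library.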
